A study of Mus musculus with 18 samples.

Results

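MHC class II genes and Ciita, the gene of their transcriptional coactivator, were measured by RNA sequencing in mouse eosinophils. The members were chosen by name for their place in class II antigen presentation and found by Ensembl gene identifier: H2-Aa, H2-Ab1, H2-Eb1, Cd74, H2-DMa, H2-DMb1, H2-DMb2, H2-Oa, H2-Ob and Ciita. They are 10 of 55029 genes counted.

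The cells were peritoneal eosinophils of C57BL/6 mice carrying an Il5 transgene, isolated by removing cells that bind anti-Thy1.2 or anti-B220 beads; B220 is the step that takes B cells away. They were cultured for 18 h unstimulated or with IFN-γ at 50 ng/ml, heat-inactivated E. coli, both together, or IL-4 at 100 ng/ml. There are 18 libraries, 3 for each treatment, with unstimulated libraries a, b and c beside the IFN-γ and E. coli libraries and d, e and f beside the IL-4 libraries. The sample labels give neither age nor sex.

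The transgene drives Il5 from a T cell promoter, so these cells come from an animal with lasting high IL-5, and none of the libraries used here is from an animal without the transgene. The gene lists of the count files split the libraries into an IFN-γ set of 12 and an IL-4 set of 6. No count in the IFN-γ set exceeds 4095, while counts in the IL-4 set reach 191131, so the counts may be of different units and levels are not compared between the sets. Each stimulus is therefore set against the unstimulated libraries of its own set.

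Class II molecules show peptides taken up from outside the cell to CD4 T cells. An alpha and a beta chain form the groove, the invariant chain Cd74 fills it until the endosome, H2-DM exchanges its remnant for peptide, and H2-DO restrains H2-DM. CIITA binds no DNA itself; it sits on the RFX, CREB and NF-Y proteins at class II promoters, and IFN-γ is its classical inducer, in part through IRF1.

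Levels are CPM, a gene's count scaled to the counts on named genes of its library. Genes were tested with edgeR quasi-likelihood fits, p-values adjusted by Benjamini and Hochberg over all genes tested, and a gene is called at an adjusted p below 0.05. The expression filter keeps a gene with 3 or more libraries of its set above 5.06 CPM in the IFN-γ set or 1.92 CPM in the IL-4 set, whatever their group. H2-DMb2, H2-Oa and H2-Ob fail it in the IFN-γ set and H2-DMb2 in the IL-4 set. Ciita passes in the IFN-γ set only through the libraries with both and 1 with IFN-γ, H2-DMb1 only through those given IFN-γ and E. coli 3, and Ciita in the IL-4 set only through the IL-4 libraries. H2-Ob also needs the IL-4 libraries to pass in the IL-4 set, where 2 unstimulated libraries lie above the cutoff. A member let in by the group where it is high had to differ, so counts over the members tested describe those members and are no support for the group of genes as a whole. These p-values measure spread between libraries, and nothing in the labels says whether libraries came from separate animals or cultures. Counting intervals and floors quoted below cover counting error alone. Less RNA per cell and fewer cells carrying it cannot be told apart in these libraries.

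H2-Aa, the alpha chain of I-A, stood at 88.9, 87.1 and 72.8 CPM in unstimulated a, b and c, 31.5, 24.9 and 52.5 with E. coli, 224, 174 and 168 with IFN-γ, and 126, 192 and 229 with both. All E. coli libraries lay below every unstimulated library of the set and all 6 libraries given IFN-γ lay above. In the IL-4 set H2-Aa was 238, 222 and 381 CPM in d, e and f and 287, 281 and 395 with IL-4, ranges that overlap.

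H2-Ab1, the beta chain of I-A, stood at 94.2, 62.7 and 58.8 CPM unstimulated, 51.3, 67.7 and 106 with E. coli, 244, 264 and 241 with IFN-γ, and 252, 361 and 414 with both. E. coli and unstimulated libraries overlap, and the 6 libraries given IFN-γ lie above both. The IL-4 set had 222, 308 and 316 CPM unstimulated and 275, 286 and 409 with IL-4, which overlap.

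H2-Eb1, the beta chain of I-E, stood at 60.3, 47.4 and 39.3 CPM unstimulated, 19.0, 19.0 and 40.9 with E. coli, 148, 117 and 94.3 with IFN-γ, and 75.5, 132 and 138 with both. E. coli 3 lies within the unstimulated range, and the libraries given IFN-γ lie above it. The IL-4 set had 217, 261 and 335 CPM unstimulated and 315, 249 and 424 with IL-4, again overlapping. The I-E alpha gene H2-Ea-ps, a pseudogene in this strain, had 0 counts in all 18 libraries.

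Cd74, the invariant chain that escorts the chains, stood at 107, 79.4 and 72.8 CPM unstimulated, 38.0, 43.2 and 80.3 with E. coli, 229, 210 and 198 with IFN-γ, and 188, 303 and 272 with both. E. coli 3 overlaps the unstimulated ones, and every library given IFN-γ lies above them. In d, e and f it was 128, 195 and 176 CPM and 187, 173 and 291 with IL-4, which overlap.

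H2-DMa, the alpha chain of the peptide exchanger, stood at 6.20, 9.60 and 5.43 CPM unstimulated, 3.02, 2.19 and 3.03 with E. coli, 22.0, 11 and 19.9 with IFN-γ, and 8.53, 17.3 and 14.5 with both. All E. coli libraries are below and all IFN-γ libraries above the unstimulated ones, while library 1 with both lies inside their range. With IL-4 it was 10.3, 8.29 and 12 CPM against 8.28, 8.18 and 7.18, without overlap.

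H2-DMb1, a beta chain of H2-DM, stood at 4.55, 3.84 and 1.81 CPM unstimulated, 1.73, 1.83 and 5.56 with E. coli, 11.8, 15 and 6.65 with IFN-γ, and 10.5, 11.2 and 15.1 with both. E. coli overlaps unstimulated, and the libraries given IFN-γ lie above both. With IL-4 it was 12.1, 11 and 14.9 CPM against 6.62, 8.95 and 12.8, which overlap.

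H2-DMb2, the other H2-DM beta chain, had 12, 2 and 5 counts unstimulated, 2, 3 and 9 with E. coli, 4, 2 and 1 with IFN-γ, and 2, 2 and 8 with both. Its groups overlap, with unstimulated a at 4.96 CPM the highest library of the set. In the IL-4 set it had 6, 7 and 5 counts unstimulated and 20, 6 and 15 with IL-4, which overlap. Its transcript is 95.7% identical to that of H2-DMb1 over 1081 bases, and the methods describe counting of uniquely mapped reads, under which reads fitting both go to neither; whether this held for both sets is not stated.

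H2-Oa, the alpha chain of the H2-DM regulator, had 16, 6 and 12 counts unstimulated, 4, 3 and 2 with E. coli, 8, 6 and 2 with IFN-γ, and 5, 8 and 3 with both. In CPM all E. coli libraries lie below the unstimulated ones, and the other groups overlap them. Its counts in the IL-4 set were 17, 15 and 16 counts unstimulated and 18, 22 and 13 with IL-4, which overlap.

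H2-Ob, its beta chain, had 13, 5 and 8 counts unstimulated, 0, 3 and 3 with E. coli, 3, 8 and 1 with IFN-γ, and 4, 4 and 3 with both. In CPM the E. coli libraries and those with both lie below every unstimulated one, and the 0 leaves room for up to 1.29 CPM. In the IL-4 set it had 8, 9 and 25 counts unstimulated and 26, 36 and 37 with IL-4, which in CPM do not overlap.

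Ciita had 10, 7 and 6 counts unstimulated, 0, 0 and 2 with E. coli, 11, 6 and 7 with IFN-γ, and 11, 14 and 12 with both. As CPM this is 4.13, 4.48 and 2.71 unstimulated, at most 1.01 with E. coli, 5.92, 2.99 and 4.23 with IFN-γ, and 7.22, 7.10 and 6.98 with both; the 2 counts of 0 leave room for up to 1.29 and 1.10 CPM. E. coli libraries lie below all others, those with both above all others, and IFN-γ alone overlaps unstimulated. For Ciita the IL-4 set has 3, 2 and 7 counts unstimulated and 24, 19 and 10 with IL-4, which do not overlap in CPM.

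**Figure D1:**
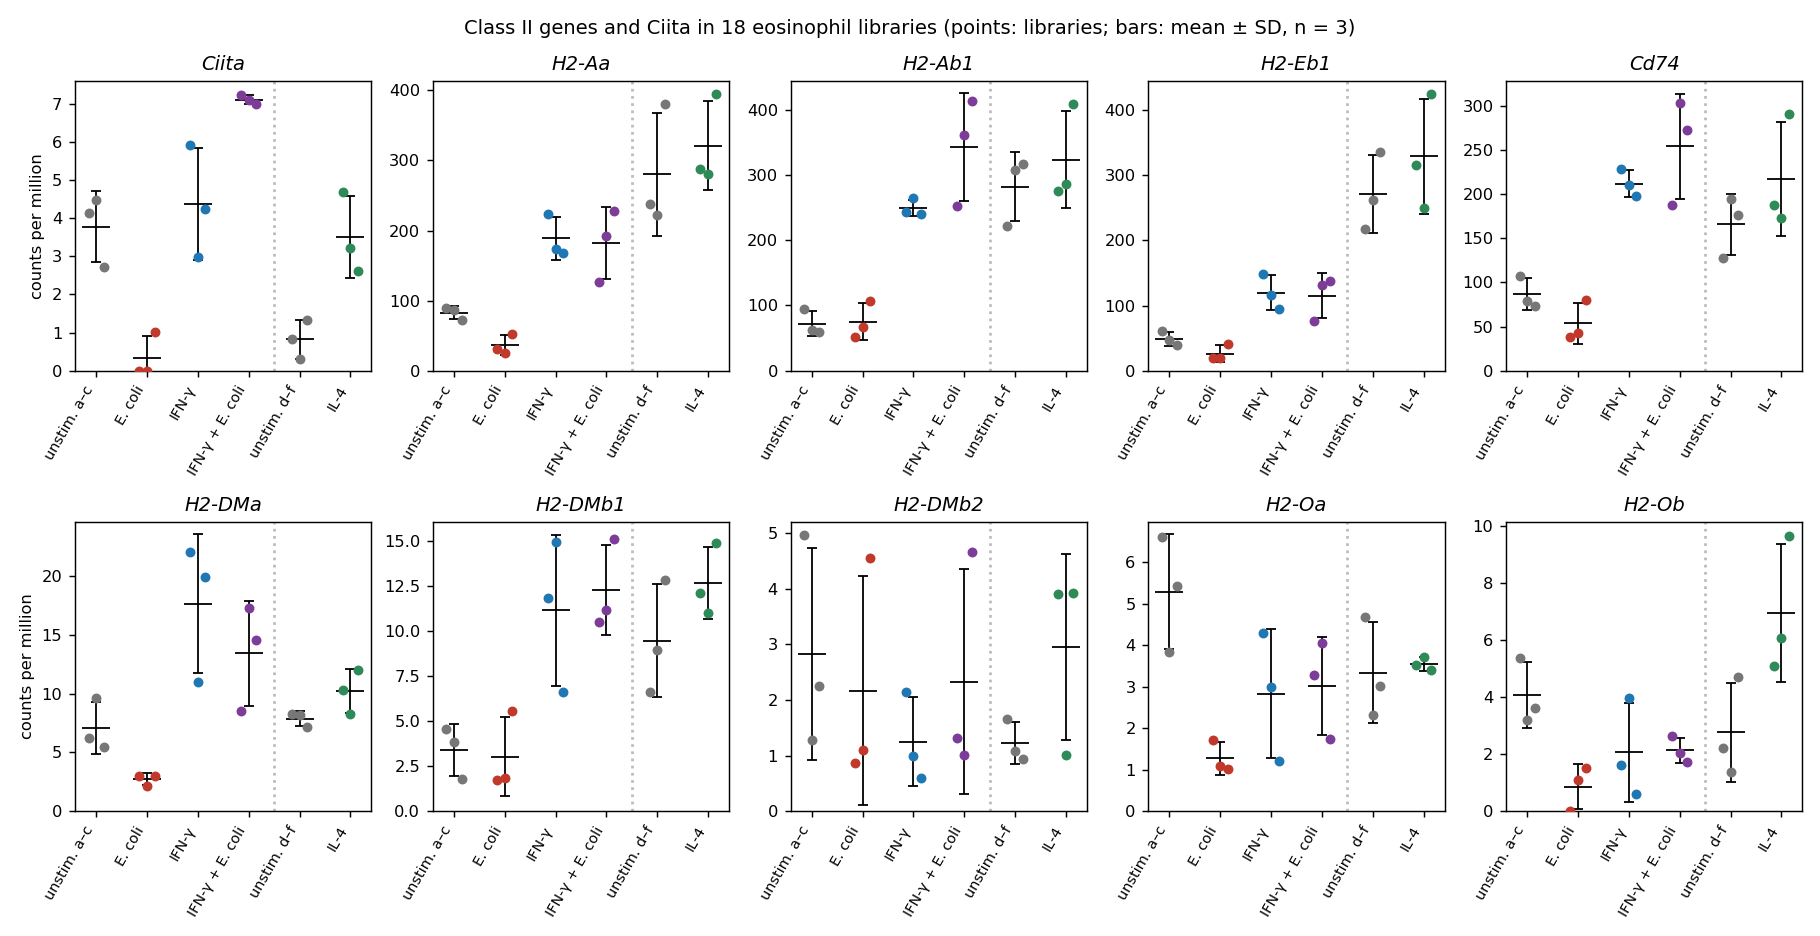
CPM of the 10 members in each of the 18 libraries, the 2 sets drawn apart. Within the IFN-γ set the chains and Cd74 are highest in libraries given IFN-γ and Ciita is lowest with E. coli; within the IL-4 set Ciita is lower in unstimulated d, e and f.

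With E. coli 5 of the 7 members tested fell, H2-Aa, H2-Eb1, H2-DMa, Cd74 and Ciita, while H2-Ab1 and H2-DMb1 were not called. Of all 9883 genes tested, 16.7% fell and 13.5% rose. H2-Aa fell by a log2 of 1.19 (standard error 0.25, adjusted p 0.00117), with all 3 libraries below all 3 unstimulated ones. For H2-Ab1 the log2 fold change was 0.06, with an interval from -0.43 to 0.56 (adjusted p 0.876). For H2-DMb1 it was -0.21, from -1.34 to 0.92 (adjusted p 0.816).

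The other calls with E. coli are less firm. H2-Eb1 changed by -0.91 (adjusted p 0.0235) and Cd74 by -0.68 (adjusted p 0.0343), and each loses its call without unstimulated a, unstimulated b, E. coli 1 or E. coli 2 (adjusted p 0.0545 to 0.133 for H2-Eb1, 0.0644 to 0.186 for Cd74). Without E. coli 3 Cd74 changes by -1.09. H2-DMa changed by -1.3 (adjusted p 0.0348) and loses its call without unstimulated a, unstimulated b or any 1 E. coli library (0.0509 to 0.135), and in DESeq2 (0.0561). The count of members called goes from 5 to 2 without unstimulated a, and to 3 without unstimulated b, E. coli 1 or E. coli 2, where H2-Oa passes the expression filter and is called.

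Ciita fell to 2 counts with E. coli from 23 unstimulated, a ratio of CPM of 0.0766, or 13.1 times lower with a counting interval from 3.23 to 114 (adjusted p 0.00181). The adjusted p runs from 0.000277 to 0.0409 over the alternatives tried, and both counts come from E. coli 3. The H2-DO genes were too low to be tested. H2-Oa had 9 counts against 34, which is 4.29 times lower by CPM (2.02 to 10.2), and H2-Ob 6 against 26, 4.92 times lower (1.98 to 14.6).

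With IFN-γ alone 6 of the 10 members rose, Ciita was not called and 3 were not tested, against 15.6% of all genes higher and 16% lower. The log2 fold change was 1.36 for H2-Aa (standard error 0.22, adjusted p 0.000108), 1.96 for H2-Ab1 (2.18e-06), 1.45 for H2-Eb1 (0.000239) and 1.46 for Cd74 (4.32e-05). H2-DMa rose by 1.52 (adjusted p 0.00199) and H2-DMb1 by 1.89 (0.00268; 1.78e-05 with no filter). The count stays at 6 with any 1 library left out. Setting all 6 unstimulated libraries of both sets together as controls, which mixes the 2 kinds of count, turns H2-Aa to -0.18 and H2-Eb1 to -0.70 and leaves 1 member called, H2-DMa; H2-Ab1 (adjusted p 0.786), H2-DMb1 (0.51) and Cd74 (0.332) lose their calls.

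Ciita was not called with IFN-γ: 24 counts against 23, a log2 fold change of 0.40 with an interval from -0.58 to 1.37 (adjusted p 0.559). The 18 h time point is the only one sampled, so Ciita at earlier times was not measured. H2-Oa had 16 counts against 34, 1.89 times lower by CPM (1.02 to 3.67), H2-Ob 12 against 26, 1.93 times lower (0.941 to 4.20), and H2-DMb2 7 against 19, 2.42 times lower (0.974 to 6.81). None of these was tested, all 3 lie lower where the 6 called members lie higher, and the intervals of the last 2 take in no difference.

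With IFN-γ and E. coli together 7 of the 10 members rose and 3 were not tested, against 23.9% of all genes higher and 25.2% lower. The log2 fold change was 1.39 for H2-Aa (adjusted p 4.19e-05), 2.50 for H2-Ab1 (4.03e-08), 1.48 for H2-Eb1 (0.000102) and 1.80 for Cd74 (1.61e-06). H2-DMa rose by 1.24 (adjusted p 0.007) and H2-DMb1 by 2.09 (0.000581). With the unstimulated libraries of both sets together, H2-Aa and H2-Eb1 again turn, to -0.12 and -0.65, and 2 members stay called, H2-DMa and Ciita.

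Ciita rose by 1.17 with both (37 counts against 23, adjusted p 0.0307, from 0.0157 to 0.118 over the alternatives). With no filter the adjusted p is 0.0444. It loses its call without unstimulated a, unstimulated c or any 1 library with both (adjusted p 0.056 to 0.118), leaving 6 members called, and in DESeq2 (0.0894). H2-Ob, not tested, had 11 counts against 26, 1.99 times lower by CPM (0.95 to 4.46), and H2-Oa 16 against 34, 1.79 times lower (0.961 to 3.47), counting intervals that take in no difference.

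With both compared to IFN-γ alone, 0 of the 7 members tested were called by edgeR and 0 by DESeq2, and 1 had an unadjusted p below 0.05. Of all genes 6.25% were higher and 5.98% lower. That member is H2-Ab1, with a log2 fold change of 0.54 (interval 0.11 to 0.97, adjusted p 0.0994, from 0.00269 to 0.283 over the alternatives), called without library 1 with both (0.71, adjusted p 0.0325). H2-Aa and H2-Eb1 were each at 0.03, Cd74 at 0.34, H2-DMb1 at 0.20, H2-DMa at -0.28 and Ciita at 0.77.

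With both compared to E. coli alone, 7 of the 10 members rose and 3 were not tested, against 17.5% of all genes higher and 15.3% lower. The log2 fold change was 2.59 for H2-Aa, 2.43 for H2-Ab1, 2.40 for H2-Eb1, 2.49 for Cd74, 2.54 for H2-DMa and 2.30 for H2-DMb1. Ciita had 37 counts against 2, a ratio by CPM of 25 (6.44 to 214). With IFN-γ compared to E. coli the same 7 were higher, against 14.1% of all genes higher and 11.5% lower, Ciita by a ratio of 15.3 (3.80 to 133).

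Whether E. coli shifts a gene differently with IFN-γ present was tested as an interaction, and 2 of the 7 members tested were called higher, against 2.58% of all genes higher and 2.04% lower. H2-Aa had an interaction of 1.23 (interval 0.55 to 1.91, adjusted p 0.034, from 6.15e-06 to 0.132 over the alternatives): E. coli alone went with a fall, and E. coli beside IFN-γ with no called difference. It loses its call without unstimulated a or b, E. coli 1 or 2, IFN-γ 2 or 3, or library 2 or 3 with both, leaving 1 member called. Cd74 had 1.03 (adjusted p 0.0696), called at 1.43 without E. coli 3 and at 1.18 without library 1 with both. H2-Eb1 had 0.94 (adjusted p 0.194), called at 1.39 without E. coli 3. The call for Ciita rests on its 2 counts with E. coli.

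In the IFN-γ set the order of levels is alike for H2-Aa, H2-Eb1 and H2-DMa: E. coli lowest, then unstimulated, then the groups with both and with IFN-γ, which were not called apart (by mean CPM the group with both is the lower of these for H2-Aa and H2-Eb1, while the fit puts it higher by 0.03). Cd74 has the same order with IFN-γ below both, again not called. For H2-Ab1 and H2-DMb1 E. coli and unstimulated were not called apart, with a wide interval for H2-DMb1, and both groups given IFN-γ lie above. Ciita is lowest with E. coli, and its steps from unstimulated to IFN-γ (adjusted p 0.559) and from IFN-γ to both (0.278) were not called.

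With IL-4 the peptide-binding chains were not called and Ciita was: 1 of 9 members tested rose, against 5.97% of all genes higher and 4.35% lower. The log2 fold change was 0.14 for H2-Aa (adjusted p 0.713), 0.13 for H2-Ab1 (0.72), 0.22 for H2-Eb1 (0.554) and 0.31 for Cd74 (0.422). H2-DMa was at 0.30, H2-DMb1 at 0.33 and H2-Oa at 0.07, none called. H2-Ob was at 1.25 (adjusted p 0.122), 99 counts against 42, and is called without unstimulated f (1.89, adjusted p 0.0492). The IL-4 libraries, where it is high, are needed for H2-Ob to pass the filter. H2-DMb2, not tested, had 41 counts against 18, a ratio of 2.36 (1.33 to 4.37).

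Ciita rose by 2.06 with IL-4 (interval 0.81 to 3.31, adjusted p 0.0432, from 0.00654 to 0.211 over the alternatives), 53 counts against 12, a ratio of 4.58 (2.42 to 9.41). Since the IL-4 libraries alone carry it past the filter, the same test was read with no filter (adjusted p 0.0263) and with a mean of at least 10 counts (0.0392). It loses its call without any 1 of unstimulated d, e, f or IL-4 1, 2, 3 (adjusted p 0.0534 to 0.211), and in DESeq2 (0.0867). The direction holds in all of these, with the 3 IL-4 libraries above the 3 unstimulated ones.

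The IL-4 and IFN-γ responses were compared directly, each against its own unstimulated libraries, and 6 of 10 members were lower in the IL-4 response, against 14.7% of all genes lower and 13% higher. This comparison was filtered apart from the others: 10671 genes were tested, H2-DMb2, H2-Oa and H2-Ob among them. The difference was -1.25 for H2-Aa (adjusted p 0.00729), -1.87 for H2-Ab1 (0.00019), -1.27 for H2-Eb1 (0.0124) and -1.19 for Cd74 (0.013). H2-DMb1 had -1.60 (adjusted p 0.0296), lost without unstimulated c or f, IFN-γ 1 or 2, or IL-4 1 or 2 (0.053 to 0.104). H2-DMa had -1.25 (adjusted p 0.034), lost without unstimulated a, c or e, IFN-γ 1 or 3, or IL-4 1 or 2 (0.0546 to 0.0982). The count falls to 4 without unstimulated c, IFN-γ 1, IL-4 1 or IL-4 2. For Ciita the difference of 1.63 was not called (adjusted p 0.101); H2-Ob, at 1.97 (0.062), is called without IFN-γ 2 or unstimulated f.

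**Figure D2:**
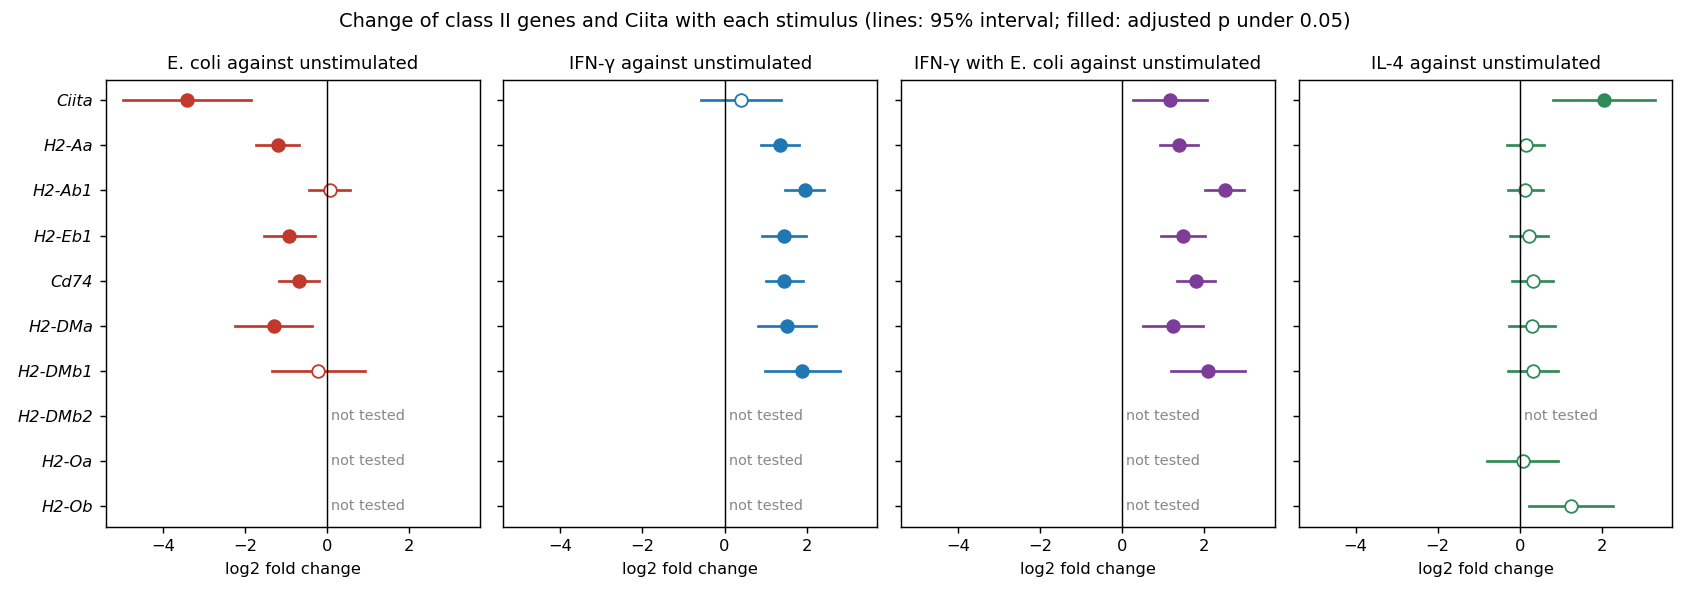
Log2 fold change with its 95% interval for each member tested and each stimulus against its own unstimulated libraries. The chains, Cd74 and H2-DM lie to the right with IFN-γ and near 0 with IL-4, where Ciita and H2-Ob lie to the right, H2-Ob not called.

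Genes that follow the mean profile of H2-Aa, H2-Ab1, H2-Eb1 and Cd74 most closely over the 12 libraries are AW112010 (correlation 0.991), Irf8 (0.983), Cd86 (0.981), Hk3 (0.981) and Pnp (0.978), out of 9243 genes. Between members the correlation of H2-Aa was 0.989 with H2-Eb1, 0.970 with Cd74 and 0.887 with H2-Ab1, n = 12 libraries. The lowest between members was 0.75, H2-Ab1 with Ciita. Closest to Ciita were Ly9 (0.970), H2-Q6 (0.952), Ttc39c (0.95), Marco (0.95) and Ccr7 (0.948). All of these run through the group means of 4 treatments, which is where most of the spread lies.

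The ratio of H2-Ab1 to H2-Aa counts, a feature chosen after the values were seen, was 1.06, 0.721 and 0.808 in unstimulated a, b and c, 1.63, 2.72 and 2.02 with E. coli, 1.09, 1.52 and 1.43 with IFN-γ, and 2.00, 1.88 and 1.81 with both. The 6 libraries given E. coli lie above the 6 without it. In the IL-4 set the ratio was 0.935, 1.39 and 0.830 unstimulated and 0.956, 1.02 and 1.04 with IL-4. Both chains are needed for 1 molecule; the protein at the surface was not measured.

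Signals upstream of Ciita, 15 genes of the IFN-γ and IL-4 pathways and repressors, were looked at next. With E. coli 3 of 14 tested rose and 7 fell, against 13.5% and 16.7% of all genes. Irf1, which binds the IFN-γ responsive Ciita promoter, was 321, 325 and 354 CPM unstimulated and 189, 200 and 195 with E. coli, without overlap, a change of -0.76 (adjusted p 1.52e-05). Nlrc5, the class I counterpart of Ciita, changed by -0.72 (adjusted p 0.00194) and Usf1 by -0.98 (0.0184, lost without unstimulated a or b or E. coli 1 or 2, and in DESeq2). The 3 that rose are Prdm1, whose protein represses Ciita, by 1.38 (adjusted p 0.00586), Socs1, a brake on cytokine signals, by 0.77 (9.89e-05), and Ifngr2, a chain of the IFN-γ receptor, by 0.57 (0.000656).

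With IFN-γ 7 of these 14 rose, against 15.6% of all genes, led by Irf1 at 2.08 (adjusted p 2.47e-11), Irf8 at 1.88 (3.32e-05), Nlrc5 at 1.49 (4.81e-07) and Socs1 at 1.34 (1.5e-07). With the unstimulated libraries of both sets together Irf8 loses its call. With both 9 rose and 1 fell, against 23.9% and 25.2% of all genes: Irf1 by 2.04 (adjusted p 1.26e-11), Prdm1 by 2.02 (0.000105), and Ifngr1, a chain of the IFN-γ receptor, by -0.56 (0.00684, lost without library 2 with both). The interaction was called for Irf1 (0.71, adjusted p 0.0059) and Nlrc5 (0.91, 0.0184, lost without unstimulated c, E. coli 2 or IFN-γ 1 or 2), and in the other direction for Socs1 (-0.81, 0.0102). Of all genes, 2.58% were higher and 2.04% lower in that test.

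With IL-4 8 of the 15 rose by edgeR and 8 by DESeq2, against 5.97% of all genes. The edgeR count runs from 4 to 8 with 1 library left out. Irf1 was 263, 209 and 269 CPM unstimulated and 519, 524 and 469 with IL-4, without overlap, a log2 fold change of 0.97 (adjusted p 0.000782). Irf4, an IL-4 responsive factor of B and dendritic cells, rose by 2.71 (95 counts against 14, adjusted p 0.00427, past the filter only through the IL-4 libraries) and Socs1 by 1.52 (9.61e-05).

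Genes of the RFX, NF-Y and CREB proteins and of 3 acetyltransferases that work with CIITA make up a list of 10, all tested. With E. coli 1 rose and 1 fell by edgeR, where 13.5% of all genes rose and 16.7% fell, and 0 were called by DESeq2, with 3 at an unadjusted p below 0.05. Rfx5, the DNA-binding RFX chain, was 12.8, 15.4 and 12.2 CPM unstimulated and 6.9, 7.32 and 6.06 with E. coli, without overlap, a change of -0.94 (adjusted p 0.00802, lost with the unstimulated libraries of both sets together). Nfya, an NF-Y chain, rose by 0.53 with E. coli (adjusted p 0.0439, lost without unstimulated a or b or E. coli 1 or 2). With IFN-γ 2 rose and 1 fell, where 15.6% of all genes rose and 16% fell. With both 2 rose and 1 fell, where 23.9% of all genes rose and 25.2% fell. With IL-4 0 were called by edgeR or DESeq2, and 0 had an unadjusted p below 0.05.

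Promoters were read for the boxes those proteins bind, from 250 bases before to 50 after the RefSeq start, on both strands. The promoter table used holds 7 of the 10 members, in 8 entries, and lacks H2-Ab1, Ciita and Cd74. CCAAT lies in 7 of 8 and in 37.4% of 32851 promoters, and CTGATTGG, the Y box form of class II genes, in 3 (H2-Oa, H2-Aa, H2-Eb1) and 4.10%. The X box with up to 3 mismatches lies in 7 and in 52.8%. Settings chosen after the matches were seen are narrower: up to 1 mismatch, 4 entries and 0.712%, and an X box followed by ATTGG 10 to 30 bases on, 5 entries and 1.33%. A match is a description; binding was not measured.

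The matches are shown as they stand, because the spacing of X box and ATTGG can be read from the letters. Build GRCm38.p6, RefSeq; capitals mark the X box match and ATTGG, and CTGATTGG for H2-Aa. H2-Oa is chr17:34092294-34092345 (+), H2-DMb2 chr17:34145117-34145168 (+), H2-DMb1 chr17:34153088-34153139 (+), H2-Ob chr17:34238809-34238857 (+), H2-Aa chr17:34287862-34287924 (-) and H2-Eb1 chr17:34305767-34305817 (+). The bases between are 23 for H2-Oa, H2-DMb2 and H2-DMb1, 20 for H2-Ob and 22 for H2-Eb1.
H2-Oa: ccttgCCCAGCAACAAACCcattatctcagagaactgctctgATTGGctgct
H2-DMb2: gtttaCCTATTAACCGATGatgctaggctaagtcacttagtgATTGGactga
H2-DMb1: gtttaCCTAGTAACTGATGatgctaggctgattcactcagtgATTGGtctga
H2-Ob: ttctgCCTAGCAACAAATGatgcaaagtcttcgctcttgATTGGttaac
H2-Aa: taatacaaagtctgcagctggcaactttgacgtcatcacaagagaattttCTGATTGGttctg
H2-Eb1: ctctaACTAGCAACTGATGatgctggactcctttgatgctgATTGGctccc

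Of the members 8 lie within 224 kb of chromosome 17, from H2-Oa to H2-Eb1, a stretch with 13 protein-coding genes in all. Psmb9, Tap1, Psmb8 and Tap2, which cut and carry peptides for class I, lie between H2-DMb1 and H2-Ob. Exons of H2-DMa overlap Brd2, those of H2-Oa overlap BC051537 and those of Ciita overlap Dexi, each on the other strand, and whether counting used the strand is not stated. Cd74 overlaps Mir5107 on its own strand.

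Psmb9, Tap1, Psmb8 and Tap2 were tested with Tapbp, a class I loading gene outside the stretch, and Brd2, a chromatin reader gene inside it. With E. coli the former 4 fell, by edgeR and by DESeq2, where 16.7% of all genes fell, and Tapbp and Brd2 were not called. Psmb9, a subunit of the immunoproteasome, was 214, 222 and 212 CPM unstimulated, 82.0, 72.4 and 99.0 with E. coli, 379, 378 and 360 with IFN-γ, and 286, 314 and 310 with both, no group overlapping another. It changed by -1.34 with E. coli (adjusted p 2.14e-07) and 0.95 with IFN-γ. With IFN-γ 6 of 6 rose, against 15.6% of all genes, and with both 6 of 6, against 23.9%, Tap2, a chain of the peptide pump, by 1.22 (adjusted p 3.05e-08) and 1.28 (6.01e-09).

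With IL-4 4 of these 6 rose by edgeR and 4 by DESeq2, against 5.97% of all genes, and Tapbp and Brd2 were not called. Psmb9 rose by 0.97 (adjusted p 0.0143, lost without IL-4 1 or 3) and Tap2 by 0.80 (0.00461). The interaction was called higher for 3, Psmb9 at 1.13 (adjusted p 0.000719), Tap2 at 0.70 (0.00696) and Psmb8 at 0.61, the last lost without any 1 library but unstimulated c and E. coli 3. Of all genes, 2.58% were higher and 2.04% lower in the interaction. With both compared to IFN-γ alone 0 of the list were called by edgeR or DESeq2, with 0 at an unadjusted p below 0.05, where 6.25% of all genes were higher and 5.98% lower.

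**Figure D3:**
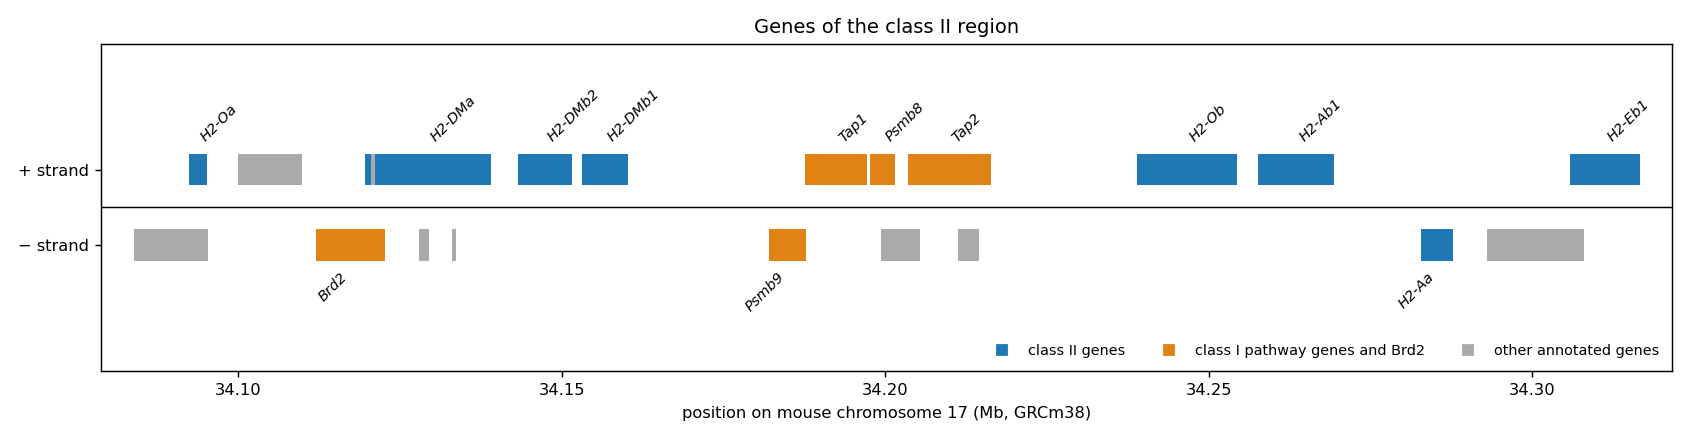
Positions of the annotated genes along the class II stretch of chromosome 17 (GRCm38), drawn apart by strand. Members, the class I genes with Brd2, and other annotated genes are coloured apart.

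Endosomal genes that prepare class II molecules, 15 tested, were called 4 times with E. coli, all lower, where 16.7% of all genes fell and 13.5% rose. Ifi30, the thiol reductase of antigen breakdown, changed by -0.98 (adjusted p 0.00276), and Ctss, the protease that trims Cd74, by -0.82 (0.000984). March1, the ligase that takes class II off the surface, changed by -0.72 (adjusted p 8e-05). With IFN-γ 8 rose, against 15.6% of all genes, a count that runs from 3 to 8 with 1 library left out, among them Lgmn at 1.15 (adjusted p 0.0002) and Mitf at 1.37 (0.000159). With both 9 rose and 1 fell, against 23.9% and 25.2% of all genes: Ifi30 by 1.02 (adjusted p 0.000356), Cd83, which keeps class II at the surface, by 1.43 (0.00325), and March1 by -0.57 (0.000478).

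With IL-4 2 endosomal genes rose and 3 fell, against 5.97% and 4.35% of all genes. Ifi30 rose by 1.22 (adjusted p 0.0019) and Sppl2a, which clears the Cd74 remnant, by 0.94 (0.00372). Of the cathepsins Ctss, Ctsh and Ctsz were not called, and 3 went the other way: Ctsb changed by -0.77 (adjusted p 0.00411), Ctsd by -0.85 (0.0118, lost without IL-4 1 or 3) and Ctsl by -0.67 (0.0159, lost without unstimulated f or any 1 IL-4 library). With the unstimulated libraries of both sets together these 3 lose their calls, as do Mitf with IFN-γ and Ifi30 with both.

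Genes of surface proteins that tune the T cell's answer to class II were read as 1 list of 6, with 4 that help activation or contact (Cd80, Cd86, Cd40, Icam1) and 2 ligands of the inhibitory receptor PD-1 (Cd274, Pdcd1lg2). With IFN-γ 5 of the 6 rose, against 15.6% of all genes, and with both 6, against 23.9%. With E. coli 3 rose and 1 fell, against 13.5% and 16.7%: Pdcd1lg2 rose by 3.15, Cd274 by 1.04 and Cd80 by 0.70, while Cd86 changed by -0.70 (adjusted p 0.0207, lost without unstimulated a or c or E. coli 1 or 2). With both, Pdcd1lg2 rose by 4.31, Cd274 by 3.33, Cd40 by 2.01 and Cd86 by 1.21. With IL-4 2 of 5 tested rose, against 5.97%, Pdcd1lg2 by 3.11 and Cd40 by 1.13. Pdcd1lg2 was at most 1.36 CPM in unstimulated a, b and c and passes the filter of the IFN-γ set only through stimulated libraries. In the IL-4 set it does not pass on the unstimulated libraries alone.

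B cells carry class II without any stimulus, so their markers were read in every library. Cd79a, part of the B cell receptor, was 49.6, 49.9 and 28.9 CPM in unstimulated a, b and c, 16, 12.4 and 17.2 with E. coli, 19.4, 14 and 13.9 with IFN-γ, and 23.0, 31.5 and 25 with both. Unstimulated libraries are higher than E. coli and IFN-γ libraries without overlap and overlap those with both. Ms4a1, which encodes CD20, was 13.2, 9.60 and 11.3 CPM unstimulated, 3.45, 2.56 and 7.07 with E. coli, 5.92, 3.99 and 3.02 with IFN-γ, and 7.88, 12.7 and 8.72 with both, in the same order.

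In the IL-4 set Cd79a was 1.10, 0.154 and 0.378 CPM unstimulated and 0.781, 1.69 and 1.04 with IL-4, which overlap. Ms4a1 was 1.93, 1.23 and 2.08 CPM unstimulated and 5.86, 4.57 and 8.10 with IL-4, without overlap. B cell transcripts are thus present in all 18 libraries, and whether they come from B cells or from RNA in the medium cannot be told apart. The methods give a purity above 95% by flow cytometry, which leaves room for other cells. The paper's discussion describes those other cells as mostly lymphocytes.

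Of 10 B cell markers 5 were tested in the IFN-γ set; for these and the markers further on, the shares of all genes called are those printed with each stimulus above. With E. coli 5 fell by edgeR and 5 by DESeq2, Cd79a by a log2 of 1.48 (adjusted p 8.2e-05) and Ms4a1 by 1.43 (0.00498). With IFN-γ 4 fell, Cd79a by 1.26 (adjusted p 0.000538) and Ms4a1 by 1.22 (0.0178, lost without unstimulated a or IFN-γ 2 or 3). With both 0 were called by edgeR and 0 by DESeq2, with 1 at an unadjusted p below 0.05. With IL-4 3 rose: Ms4a1 by 1.76 (adjusted p 0.0214, lost without IL-4 1 or 3), Cd79b by 1.44 (0.0275, lost without unstimulated d or any 1 IL-4 library) and Ighm by 0.90 (0.0194, lost without any 1 IL-4 library). With the unstimulated libraries of both sets together the direction of Ighm turns, and Cd79a, Ms4a1 and Cd79b lose these calls.

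Set beside the members, the B cell markers moved opposite to the peptide-binding chains with IFN-γ, where Cd79a changed by -1.26 and H2-Aa by 1.36. H2-Oa and H2-Ob, not tested in that set, lay on the side of Cd79a. By CPM they were 1.89 and 1.93 times lower with IFN-γ, the counting interval of H2-Ob taking in no difference. With E. coli Cd79a changed by -1.48 and H2-Aa by -1.19, while H2-Ab1, at 0.06, was not called. There H2-Oa and H2-Ob were 4.29 and 4.92 times lower. With IL-4 Ms4a1 rose by 1.76 and Ciita by 2.06. H2-Ob had a ratio of 2.44 by CPM and H2-Oa of 1.14, neither called. Over the 12 libraries the correlation with the B cell markers was 0.29 for H2-Aa, 0.01 for H2-Ab1, 0.21 for Cd74 and 0.59 for Ciita, n = 12. With the macrophage markers it was 0.63 for H2-Aa, 0.50 for H2-Ab1, 0.63 for H2-Eb1, 0.55 for Cd74 and 0.42 for Ciita, and with the dendritic cell markers it was negative for each, from -0.54 for H2-DMa to -0.84 for H2-Ab1. These sums are carried mostly by 1 gene in the dendritic list, Itgax, and other genes of that list go another way, as Ccr7, at 0.948 with Ciita, shows. How much of any member's RNA comes from B cells or macrophages was not measured.

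Other cells that carry class II were read the same way. Of the dendritic cell markers 4 were tested with E. coli and 2 fell, Ccr7 by a log2 of 1.60 and Fscn1 by 1.59 (lost without E. coli 1 or 2). With IFN-γ 1 fell, Fscn1 (lost without unstimulated c or IFN-γ 2 or 3). With both 1 rose, Ccr7 (lost without unstimulated a or library 2 with both), and 2 fell, Batf3 and Itgax. With IL-4 3 of 6 rose: Xcr1 by 1.34 (lost without any 1 of the 6 libraries, and in DESeq2), Batf3 by 1.18 and Itgax by 0.77 (lost without unstimulated d or f or any 1 IL-4 library).

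Of the macrophage markers 9 were tested in the IFN-γ set. With E. coli 1 fell, Timd4. With IFN-γ 4 rose and 1 fell, among them Mertk by 1.42 and C1qb by 1.04, whose direction turns with the unstimulated libraries of both sets together. With both 2 rose, the same 2 genes, and 1 fell. With IL-4 3 of 10 changed, all downward: Adgre1 by -0.80, Csf1r by -0.68 (lost without IL-4 1 or 2) and C1qb by -0.51 (lost without unstimulated f or any 1 IL-4 library, and turned with all unstimulated libraries together). Named after the values were seen, Timd4 (0.53, adjusted p 0.0856), Gata6 (0.62, 0.106) and Mrc1 (1.31, 0.179) lay higher with IL-4 and were not called. Adgre1 and Itgax are also made by eosinophils.

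The macrophage markers together stood at 2016, 1906 and 2096 CPM in unstimulated a, b and c, 1860, 1732 and 2199 with E. coli, 2325, 2275 and 2374 with IFN-γ, and 1925, 1884 and 2244 with both. IFN-γ libraries are the highest, and the others overlap. E. coli 3, the highest of its group for the chains and Cd74, is also the highest of its group for these markers and for the B cell markers, which summed to 46.2, 53.4 and 80.8 CPM with E. coli. The mast cell markers set it apart too, with sums of 10.4, 7.32 and 35.4 CPM in E. coli 1, 2 and 3. Which cells in E. coli 3 carry the additional class II RNA cannot be told from these libraries.

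T cell, mast cell and eosinophil markers complete the check. Of the T cell markers 1 was tested in the IFN-γ set, Cd3d, and 0 were called with any stimulus by edgeR or DESeq2, with 0 at an unadjusted p below 0.05. Of 2 mast cell markers tested, 1 rose with IFN-γ (Tpsb2, 1.51, lost without any 1 of unstimulated a, b and c or IFN-γ 1) and 2 with both (Cma1 3.45, past the filter through that group, and Tpsb2 2.65). Of 6 eosinophil markers tested in the IFN-γ set, 1 rose and 2 fell with E. coli, 4 fell with IFN-γ, and 1 rose and 4 fell with both, Siglecf by a log2 of 1.55 and Il5ra by 1.28. With IL-4, where more of the eosinophil markers passed the filter, Ear1 and Ear2 among them, 4 rose and 1 fell, Ccr3, with a change of -0.72 (lost without IL-4 1 or 3). The eosinophil markers together stood at 4262 to 5191 CPM in unstimulated a, b and c, 3410 to 3721 with E. coli, 3505 to 4109 with IFN-γ and 2679 to 2943 with both. Every unstimulated library lies above every stimulated one there, and those with both are lowest. In the IL-4 set they stood at 5138 to 5589 CPM unstimulated and 5144 to 5331 with IL-4, which overlap. Alox15 and Ccr3 are the most abundant of them, with 10422 and 9276 counts in unstimulated a, b and c together. No count of the IFN-γ set exceeds 4095, so the sums there may be held down by that ceiling, and they are not corrected for it.

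**Figure D4:**
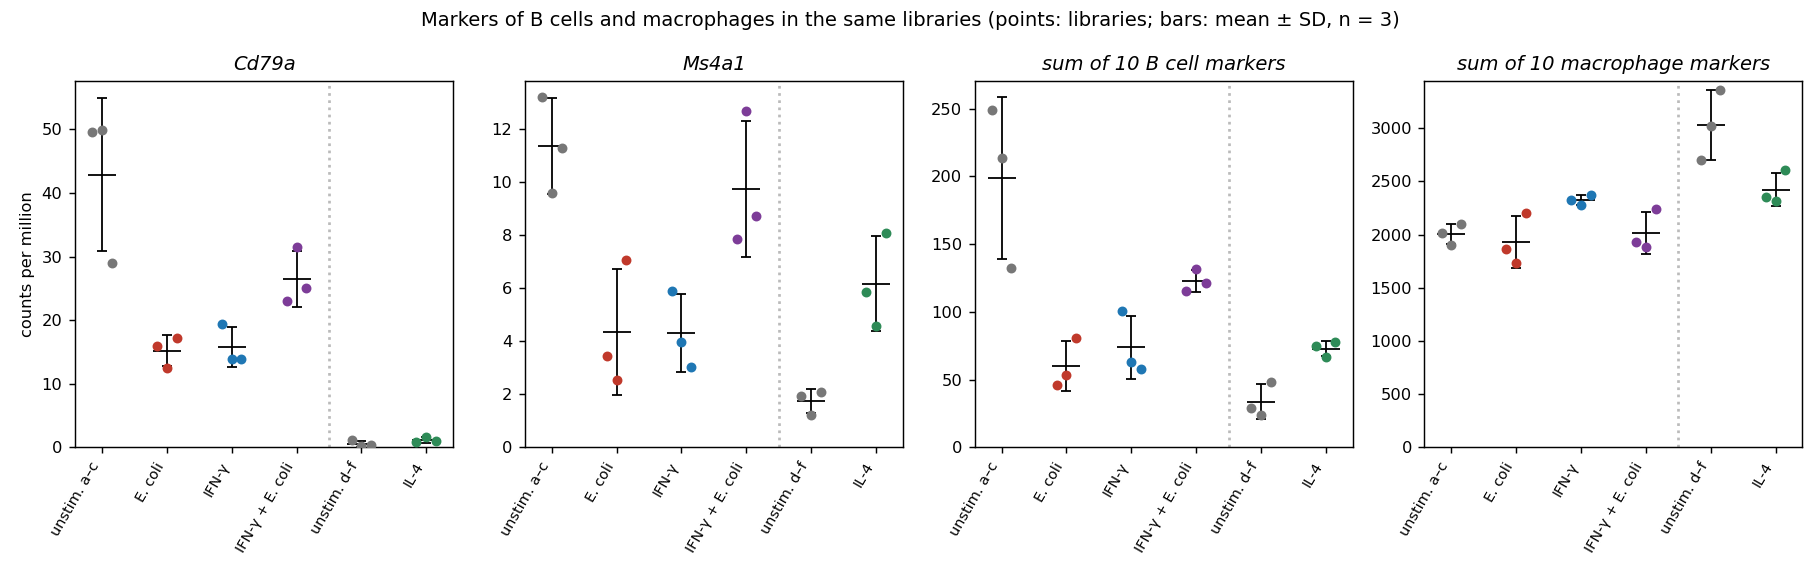
CPM of Cd79a and Ms4a1, and summed CPM of the B cell and of the macrophage marker lists, in each library. Within the IFN-γ set the B cell sum is highest in unstimulated a, b and c, where the class II chains are not at their highest.

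What these libraries can show has bounds. There are 3 libraries for each treatment and 1 time point, and each group of the IFN-γ set enters several comparisons, so those results are not independent of each other. Ciita and the H2-DO genes have few counts, and up to 1.97 CPM could be missed in the IFN-γ set. Rows naming no gene hold 21.1 to 39.4% of the counts there. Surface protein, peptide loading and T cell activation were not measured, and neither were single cells.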

How the data were processed

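The starting point was the deposited gene counts, made by the authors with STAR 2.7.2a or TopHat2 2.1.0 and HTSeq 0.6.1 on GRCm38; reads were not realigned. Rows were matched to GENCODE M21 by Ensembl identifier; rows naming no gene (21.1 to 39.4% of counts in the IFN-γ set, 0% in the IL-4 set) were left out. Fits used edgeR 4.0.16 in R 4.3.3 with its expression filter and TMM scaling, and DESeq2 1.42.0 as alternative. Other alternatives were scaling, filters, a factor of 2, the 6 libraries compared, pooled unstimulated libraries, a replicate block, 1 library left out and a correction for the ceiling. Members and lists were chosen with earlier results of these data known. Lists: upstream of Ciita, its partner proteins, endosomal, class I in or near the region, costimulation, other class II (H2-Ea-ps, and H2-Eb2 with at most 9 counts in a group), and markers of 6 cell types. Named genes are all members, up to 4 called genes with the largest change per list, comparison and direction, genes whose role is explained, and the 5 genes most alike. No protein sequences were at hand, so transcripts were compared with blastn 2.17.0.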

Additional observations from a re-analysis of the deposited data

Results flagged for a closer look

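A few values stood out by rules that look at every member, and about 1 in 20 groups is picked by chance alone. H2-DMb2 in unstimulated a was 4.96 CPM and was picked for its distance from the next of the 6 unstimulated libraries. That check puts unstimulated libraries of both sets together, whose counts may be of different units. Calls in the test of E. coli with and without IFN-γ were picked because they differ between 2 conditions: H2-Aa at 1.23 and Ciita at 4.18, the latter resting on 2 counts. Calls in the IL-4 response against the IFN-γ response were picked for the same reason: H2-Aa at -1.25, H2-Ab1 at -1.87, H2-Eb1 at -1.27, H2-DMa at -1.25, H2-DMb1 at -1.60 and Cd74 at -1.19.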

How the results depend on the processing

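Requiring a change by a factor of 2 leaves 3 members called with E. coli. Over all genes it leaves 1023 of 2986 with E. coli, 1187 of 3120 with IFN-γ, 2210 of 4844 with both, 478 of 1089 with IL-4, 404 of 1209 for both compared to IFN-γ, 1325 of 3240 for both compared to E. coli, 1027 of 2525 for IFN-γ compared to E. coli, 245 of 457 for the interaction and 1789 of 2964 for IL-4 compared to IFN-γ responses.

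Setting all 6 unstimulated libraries together leaves 1 member called with IFN-γ, 2 with both and 0 with IL-4 (where edgeR calls 1 otherwise and DESeq2 0), and calls 1662 genes with IL-4. It turns H2-Ab1 with E. coli to -1.65, H2-Aa to -0.18 and H2-Eb1 to -0.70 with IFN-γ, H2-Aa to -0.12 and H2-Eb1 to -0.65 with both, and H2-Oa with IL-4 to -0.0037. The share of higher calls with IL-4 goes from 57.9 to 41.6%.

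DESeq2 calls 0 members with IL-4; its adjusted p was 0.0867 for Ciita with IL-4, 0.0894 for Ciita with both (1.21), 0.0561 for H2-DMa with E. coli, and 0.058 for H2-DMa between responses. Without a filter, 1634 genes are called with IL-4, 1 member for both compared to IFN-γ and 4 in the interaction, H2-Eb1 (0.00869) and Cd74 (0.000226) among them, and H2-DMa between responses has 0.0508. H2-Oa and H2-Ob then fall with E. coli (adjusted p 0.00482 and 0.0108; 0.0308 and 0.0621 in DESeq2). A mean of at least 10 counts leaves 1 member in the interaction. Fitting all 18 libraries at once calls 1892 genes with IL-4. DESeq2 size factors turned no member's direction.

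A replicate block calls 1 member for both compared to IFN-γ, H2-Ab1 (0.49, adjusted p 0.0277), and turns H2-Aa to -0.0023 and H2-Eb1 to -0.010. Correlations of libraries of the same number were -0.002, 0.173 and -0.016 for E. coli with IFN-γ, 0.071, 0.099 and 0.163 for E. coli with both, and -0.045, 0.212 and 0.331 for IFN-γ with both. Those of different numbers ran from -0.377 to 0.266, and not every library correlated best with its own number. Nothing in the labels pairs the numbers, and they were not treated as pairs.

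Leaving 1 library out, members called run from 2 to 5 with E. coli, 0 to 1 with IL-4, 0 to 1 for both compared to IFN-γ and 1 to 4 in the interaction. Genes called run from 483 to 1394 with IL-4, 740 to 1122 for both compared to IFN-γ and 266 to 562 in the interaction. The sign is not fixed for H2-Ab1 (-0.27 to 0.29) and H2-DMb1 (-0.89 to 0.11) with E. coli; for H2-Aa (-0.055 to 0.40), H2-Ab1 (-0.10 to 0.25), H2-Eb1 (-0.026 to 0.38) and H2-Oa (-0.12 to 0.34) with IL-4; and for H2-Aa (-0.19 to 0.23), H2-Eb1 (-0.14 to 0.25) and H2-DMb1 (-0.027 to 0.45) for both compared to IFN-γ.

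A correction for the ceiling on counts was added after the data were seen and applied to comparisons within the IFN-γ set. It left every member's call in those comparisons as it was.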
